A study of Homo sapiens with 20 samples.

Results

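SW480 cells transfected with a scrambled control siRNA (SCR) were sequenced as 6 libraries of a series of 20, and these 6 libraries, replicates 1 to 3 set against replicates 4 to 6, are described here. All 6 carry the same label, and no label tells the sets apart. The split was selected on the readout itself: it was noticed on the first principal component of the expression values of the SW480 libraries. Every difference between the sets is therefore a description, given with no test, and an exact permutation test of 3 against 3 could in any case not go below p = 0.1. SW480 is an established line from a human colorectal cancer, grown in RPMI 1640 medium. The cells had been reverse transfected with a lipid reagent and were harvested after 72 h, per the methods of the study. The study silenced POLR1D, a subunit shared by RNA polymerases I and III, with the siRNAs siPOLR1D2 and siPOLR1D3 in SW480 (6 libraries) and in HT29, another colorectal cancer line (4 silenced and 4 SCR libraries). RNA was enriched for coding exons before sequencing. Nothing in the labels says whether the replicates were separate cultures, passages or days, so the spread between them may be technical.

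Cells of a line kept under the same conditions still differ in how crowded, fed or stressed they are when they are lysed. The integrated stress response is a translation-linked program run by the transcription factor ATF4, which raises genes of amino acid supply, while heat shock factors raise chaperones and metal-responsive transcription raises metallothioneins, small proteins that bind zinc and copper. Immediate early genes such as FOS and EGR1 answer growth factors within minutes. Matrix, actin and YAP target genes follow attachment and cell shape. Carcinoma lines can also hold subpopulations, and SW480 has long been known to contain cells of more epithelial and of more mesenchymal shape.

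The authors deposited normalized values per gene, and 15059 of 36346 gene names reached 10 in 3 or more of the 6 libraries, the limit on low values used throughout. The third highest of the 6 values was 10 to 11 in 185 genes just inside this limit and 9 to 10 in 219 genes just outside it. Taking the most frequent low value as 1 read, the libraries held roughly 18700000, 20500000 and 19200000 reads in SCR 1 to 3 and 20200000, 25700000 and 27600000 in SCR 4 to 6. Depth thus differed along the split, although SCR 4 and SCR 2 were alike in it. Genes with a value above 0 numbered 19167, 20133 and 20287 in SCR 1 to 3 and 21339, 21848 and 21883 in SCR 4 to 6. All 6 libraries had the epithelial markers of a colorectal line, with EPCAM between 17162 and 35833 and KRT18 between 67538 and 121181. A list of 10 HT29 markers summed to 642 to 1172 in them and to 7032 to 34994 in HT29 SCR. Of these markers AGR2 was at most 4.15, LGALS4 at most 9.07 and KRT20 at most 11.2, while TSPAN8 was 187 to 544, and CDH17 (342 to 532) and TFF3 (38.1 to 115) were higher in SW480 than in HT29 SCR (at most 21.6 and 6.29).

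A gene was called apart when the values of SCR 1 to 3 and SCR 4 to 6 did not overlap and the mean log2(value + 1) differed by at least 1, that is 2-fold. Of the 15059 genes, 969 (6.43%) were apart and higher in SCR 4 to 6 and 341 (2.26%) were apart and higher in SCR 1 to 3, together 1310 genes (8.7%). Without SCR 1, the counts were 1280 and 607. The percentages are the background for every count of list genes below, and nothing is read from them, since the same values chose the split. The genes apart were mostly of low level. Among 4465 genes with a mean below 100, 15.4% were higher in SCR 4 to 6 and 3.14% in SCR 1 to 3, while among 4116 genes with a mean of 1000 or more the shares were 0.899% and 1.31%. The imbalance between the directions depended on the scaling: 74.0% of the genes apart were higher in SCR 4 to 6 with the values as deposited, and 54.0% after quantile normalization. In the genes with a mean below 100, the log2 difference from SCR 2 was taken gene by gene. Its median was 0.39 in SCR 4, a library of like depth to SCR 2, and 0.33 and 0.30 in SCR 5 and SCR 6. The part of depth in the other low genes was not tested. The median difference of all 15059 genes (SCR 4 to 6 minus SCR 1 to 3) was 0.0074 on the log2 scale. The smallest difference counted as apart was 1.0009 and the largest left out among genes without overlap was 0.998.

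The 6 libraries did not fall into sets of equal tightness. SCR 4, 5 and 6 were close to each other, with 3.84% to 5.50% of genes differing 2-fold between any pair of them. SCR 2 and SCR 3 differed 2-fold in 10.2% of genes. SCR 1 differed 2-fold in 18.2% of genes from SCR 2 and in 22.1% from SCR 3, the libraries of its own set, and in 15.6% to 18.0% from SCR 4 to 6. Across the sets the 9 pairs ranged from 15.6% to 19.5%. For scale, the 3 pairs within siPOLR1D3 of SW480 ranged from 1.73% to 2.74% and the 6 pairs of HT29 SCR from 3.54% to 20.6%. On principal components of the 6 SW480 SCR libraries alone, the first component held 48.6% of the variance, with SCR 2 and 3 on the far side (scores of -67.4 and -61.8), SCR 4, 5 and 6 opposite (49.0, 48.4 and 36.5), and SCR 1 near the middle (-4.68). The second component, with 27.8%, set SCR 1 alone against the rest. SCR 1 thus stood apart from both sets.

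The 10 genes furthest above in SCR 4 to 6 were CSF2RA, CHL1, SCN1A, HMCN1, SEMA5A, ALPL, ITIH3, CES1, HSD17B2 and CXCL14. CSF2RA, the alpha chain of the GM-CSF receptor, had values of 133, 17.8 and 3.92 in SCR 1 to 3 and of 1084, 1248 and 1025 in SCR 4 to 6, a log2 difference of 5.59. All values of the second set lay far above those of the first, and SCR 1 was highest within its set. The gene lies in the region shared by the X and Y chromosomes (on X at 1268800 to 1310381 in GENCODE v29, GRCh38). CHL1, a neural cell adhesion molecule, had values of 18.2, 7.73 and 8.50 against 718, 395 and 254 (log2 difference 5.16). SCN1A, a voltage-gated sodium channel, had 10.7, 55.4 and 51.4 against 1212, 844 and 618 (4.72). In CHL1 and SCN1A, SCR 4 was highest and SCR 6 lowest within the upper set, without reaching the lower set. HMCN1, a basement membrane protein, had 161, 28.9 and 38.3 against 1534, 1200 and 963 (4.40). SEMA5A, a guidance molecule, had 147, 1.03 and 8.54 against 384, 368 and 323 (4.66). ALPL, ITIH3, CES1, HSD17B2 and CXCL14 had log2 differences between 4.46 and 5.24. CXCL14, a chemokine, was listed at 0 in SCR 2, ALPL, alkaline phosphatase, at 0 in SCR 2 and 3, and ITIH3, a secreted inhibitor chain, and CES1, a carboxylesterase, at 0 in SCR 3. The differences of these 4 genes rest on the added 1 and have no exact size.

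Among genes with a mean of 1000 or more in the higher set, a choice made after the values were seen, CDH11, a mesenchymal cadherin, had 528, 68.8 and 86.1 in SCR 1 to 3 and 2158, 2297 and 2023 in SCR 4 to 6 (log2 difference 3.87). OLR1, a receptor for oxidized lipoprotein, had 429, 31.1 and 39.6 against 1615, 1604 and 1145 (4.12). TNNC1, a troponin of slow and cardiac muscle, had 829, 76.9 and 75.8 against 2023, 2072 and 1652 (3.48). In each of these genes SCR 1 was several times above SCR 2 and SCR 3 and below SCR 4 to 6, and the pair SCR 2 and 3 lay close together. In FRY, AFF3, ALPK2, PIP5K1B and PSG5, SCR 1 likewise lay between SCR 2 and 3 and SCR 4 to 6, with log2 differences of 3.43 to 3.88.

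The genes furthest above in SCR 1 to 3 included an ion channel, signalling genes and the metallothionein MT1A. AMPD1, the muscle AMP deaminase, had values of 156, 158 and 115 in SCR 1 to 3 against 4.31, 12.2 and 4.92 in SCR 4 to 6 (log2 difference -4.25). Its 3 upper values lay within a narrow range, SCR 1 among them. CACNA1E, a voltage-gated calcium channel, had 76.5, 653 and 514 against 9.71, 13.2 and 30.8 (-4.13). IRAK2, a kinase of Toll-like and interleukin-1 receptor signalling, had 35.6, 446 and 286 against 11.02, 4.88 and 11.45 (-4.13). Here SCR 1 was far below SCR 2 and 3 and not far above SCR 4 to 6. VAT1L had 611, 7034 and 4774 against 146, 154 and 318 (-3.82), and VGF, a neuropeptide precursor, had 33.9, 356 and 563 against 11.01, 16.76 and 15.72 (-3.65). EFNA5, CTHRC1, CPNE8 and MAOA, the last a monoamine oxidase, had log2 differences of -3.79, -3.77, -3.77 and -3.66.

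**Figure D1:**
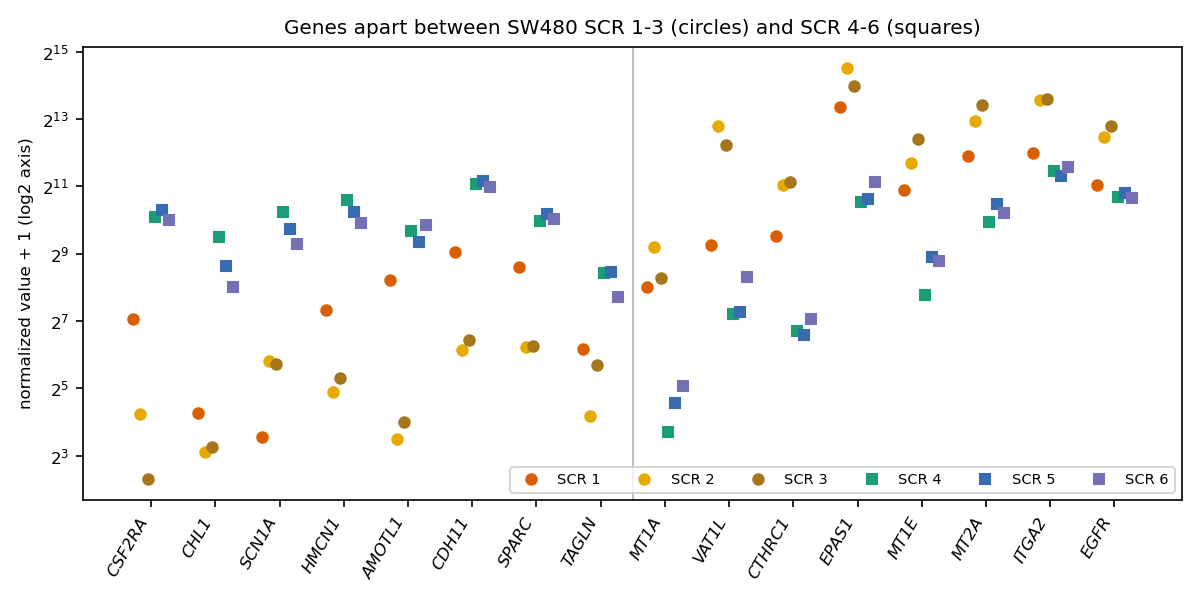
Normalized value plus 1 (log2 axis) of 16 genes apart between the sets, each point a library, circles for SCR 1 to 3 and squares for SCR 4 to 6. In CSF2RA, AMOTL1, CDH11 and SPARC, SCR 1 (dark orange) lies between SCR 2 and 3 and the squares, and in MT1A, MT1E and MT2A it lies with or below the other circles and above the squares.

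Abundant genes higher in SCR 1 to 3 included a hypoxia-linked transcription factor, a keratin and surface receptors. EPAS1, which codes for HIF-2 alpha (chromosome 2, 46293667 to 46386703), had 10414, 23580 and 16214 in SCR 1 to 3 and 1487, 1565 and 2243 in SCR 4 to 6, means of 16736 ± 6598 and 1765 ± 416 (SD, n = 3 each) and a log2 difference of -3.19. The keratin KRT6B had 719, 4344 and 2208 against 230, 200 and 470 (-2.77), with SCR 1 nearer to SCR 6 than to SCR 2, and shares much of its sequence with other type II keratins such as KRT6A. ITGA2, the collagen-binding integrin alpha 2, had 4082, 12066 and 12393 against 2796, 2535 and 3050 (-1.61). EGFR, the epidermal growth factor receptor, had 2091, 5620 and 7027 against 1641, 1797 and 1613 (-1.37). In both of these SCR 1 lay close above SCR 4 to 6. VIM, the intermediate filament vimentin, had 16948, 42299 and 52774 against 15563, 18736 and 16253, so that SCR 1 lay among SCR 4 to 6 and the sets overlapped.

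Of the stress lists, metallothioneins had the largest difference between the sets. In a list of metallothioneins and zinc genes, 3 of 6 members past the limit on low values were apart and higher in SCR 1 to 3 and none was higher in SCR 4 to 6, with a median log2 difference of -1.05 beside 0.0074 over all genes. MT2A had 3817, 7901 and 10953 in SCR 1 to 3 against 988, 1424 and 1190 in SCR 4 to 6 (log2 difference -2.54). MT1E had 1904, 3309 and 5466 against 220, 472 and 442 (-3.18). MT1X had 1135, 1370 and 1756 against 533, 758 and 602 (-1.16), and was not apart without SCR 3. In all 3 the sets did not overlap, and SCR 1 was lowest within its set. MT1A, which the list does not hold, had 256, 590 and 309 against 12.2, 22.7 and 32.4 (-4.05). MT1F had 55.0, 18.8 and 42.2 against 14.5, 27.8 and 14.5 and overlapped. The zinc exporter SLC30A1 also overlapped, with 382, 532 and 425 against 295, 342 and 461. Metallothionein genes are alike in sequence, and reads shared between them could have been split among them in counting. The list level in the silenced SW480 libraries ran from 8.35 to 9.88 on the log2 scale, beside 9.73 to 10.2 in SCR 1 to 3 and 8.38 to 8.81 in SCR 4 to 6.

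Metallothionein promoters carry metal response elements, the sites of the zinc-sensing factor MTF-1. The promoters of MT1X (chr16:56682220-56682519, plus strand) and MT2A (chr16:56608334-56608633, plus strand) are shown because both genes were apart in the same direction, from 250 bases before to 50 bases after the start (RefSeq, GRCh38.p14). Capitals mark the element core, searched as TGCACNC and TGCGCNC on both strands with overlaps allowed, a motif chosen after the values were seen.
MT1X: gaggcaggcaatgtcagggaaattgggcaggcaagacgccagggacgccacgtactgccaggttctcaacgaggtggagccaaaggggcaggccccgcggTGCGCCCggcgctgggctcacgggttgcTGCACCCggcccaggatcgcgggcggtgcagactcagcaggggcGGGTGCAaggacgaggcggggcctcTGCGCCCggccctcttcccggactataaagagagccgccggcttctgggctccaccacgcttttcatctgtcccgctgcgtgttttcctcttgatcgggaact
MT2A: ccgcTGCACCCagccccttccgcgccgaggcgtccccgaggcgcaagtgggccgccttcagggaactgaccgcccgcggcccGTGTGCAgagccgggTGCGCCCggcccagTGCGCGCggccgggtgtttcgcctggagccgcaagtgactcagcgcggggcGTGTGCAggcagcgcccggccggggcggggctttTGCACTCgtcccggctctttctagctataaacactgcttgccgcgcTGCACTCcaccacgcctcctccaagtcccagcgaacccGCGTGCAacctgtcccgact
MT1X had 4 matches and MT2A had 8. Of 27305 promoters of this length, 29.3% had at least 1 match and 2.27% at least 3. A match is a stretch of letters and not a measured site.

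The hypoxia list had members on both sides. Of 23 hypoxia-inducible genes, 5 were apart and higher in SCR 1 to 3 and 1 was higher in SCR 4 to 6, with a median log2 difference of -0.23, which was -0.60 after quantile normalization, -0.42 with a limit of 50 on low values and -0.53 without SCR 4. EGLN3, an oxygen-sensing prolyl hydroxylase, had 130, 107 and 79.1 against 25.2, 15.6 and 41.2 (log2 difference -1.98). NDRG1 had 1878, 3948 and 4155 against 1096, 1146 and 1036 (-1.52). PFKFB3, PFKFB4 and ANKRD37, of which the PFKFB enzymes set the level of a glycolysis activator, had differences of -1.37, -1.18 and -1.11, and PFKFB3 was not apart without SCR 2. LOX, the lysyl oxidase that cross-links collagen, went the other way at low values, with 1.49, 4.53 and 3.53 against 15.26, 20.003 and 18.96 (2.26), and passed the limit on low values through SCR 4 to 6 alone. CA9, the carbonic anhydrase often used as a hypoxia marker, was low in all 6 libraries (10.3 to 33.3) and overlapped. VEGFA, the endothelial growth factor, had 751, 1595 and 1166 against 1223, 1367 and 2366 and overlapped, with SCR 1 lowest and SCR 6 highest.

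Hypoxia-inducible factors bind elements with the core ACGTG. The promoters of ANKRD37 (chr4:185396591-185396890, plus strand) and LOX (chr5:122078210-122078509, minus strand) are shown because they carry this core (capitals, either strand, overlaps allowed) while the genes were apart in opposite directions.
ANKRD37: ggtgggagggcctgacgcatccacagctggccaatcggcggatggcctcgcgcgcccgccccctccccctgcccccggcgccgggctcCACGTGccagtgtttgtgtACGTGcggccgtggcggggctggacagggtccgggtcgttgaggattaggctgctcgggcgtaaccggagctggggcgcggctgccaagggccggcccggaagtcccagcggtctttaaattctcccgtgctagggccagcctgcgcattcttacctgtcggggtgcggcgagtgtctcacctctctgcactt
LOX: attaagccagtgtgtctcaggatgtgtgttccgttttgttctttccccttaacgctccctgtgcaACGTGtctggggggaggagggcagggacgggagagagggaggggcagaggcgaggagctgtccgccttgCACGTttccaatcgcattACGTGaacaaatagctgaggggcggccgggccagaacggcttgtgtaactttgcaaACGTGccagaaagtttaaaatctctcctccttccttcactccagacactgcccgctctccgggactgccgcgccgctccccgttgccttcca
ANKRD37 had 3 matches and LOX had 4. The core stood in 11 of the 20 list promoters matched (55.0%) and in 21.6% of the 27305 promoters, and in 2 of the 5 matched promoters of genes apart.

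The integrated stress response varied widely between the control libraries, but between single libraries and not along the split. Of 19 members only VLDLR, a lipoprotein receptor, was apart (1045, 1082 and 652 against 1929, 2292 and 2500), and the median log2 difference was 0.14, with -0.30 without SCR 1, -0.17 without SCR 6 and 0.27 to 0.45 without SCR 2, 3 or 4. The mean log2 level of the list was 7.73 in SCR 1, 9.40 in SCR 2, 9.14 in SCR 3, 8.69 in SCR 4, 8.86 in SCR 5 and 9.58 in SCR 6. SCR 1 had the lowest value of the 6 libraries in 15 of the 19 genes. DDIT3, which codes for the pro-apoptotic factor CHOP, had 228, 1309, 1256, 377, 428 and 767 in SCR 1 to 6. CHAC1, a glutathione-degrading enzyme, had 66.4, 378, 117, 140, 143 and 313, and SESN2, an inhibitor of mTORC1, had 108, 712, 499, 252, 342 and 595. In each of these SCR 1 was lowest and SCR 2 highest, so that both ends of the range lay within the set of SCR 1 to 3. The range of the list level over the 6 libraries was 1.85, and over the 4 HT29 SCR libraries it was 2.19.

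**Figure D2:**
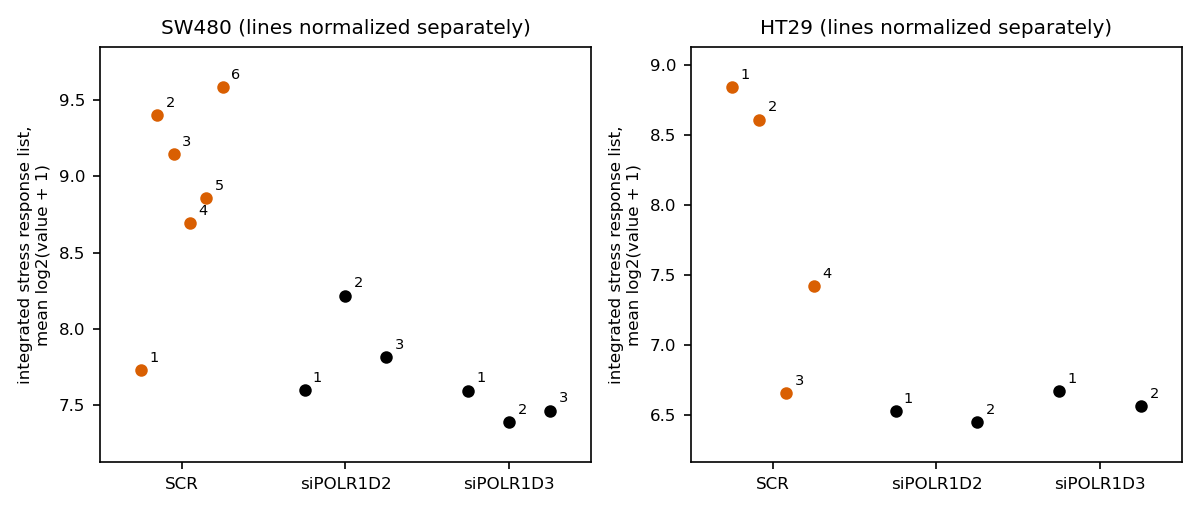
Mean log2(value + 1) of 19 integrated stress response genes in each library, by group, with replicate numbers beside the points; levels are read within a panel, since the deposited values are scaled alike within a line only. SCR 1 of SW480 (7.73) lies among the silenced SW480 libraries (7.39 to 8.22), and the other 5 SW480 SCR libraries lie above them. Members such as DDIT3, CHAC1 and SESN2 are also among the 45 genes that the study listed after silencing, chosen on these libraries. The place of the controls above the silenced libraries is therefore no independent measure.

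In heat shock chaperones, SCR 1 was at the other end. None of 17 members was apart, the median log2 difference was -0.43 (-0.20 without SCR 1, -0.74 without SCR 3 and -0.28 after quantile normalization), and SCR 1 had the highest value in 14 of the 17 genes. HSPA1A, an inducible HSP70 nearly identical to HSPA1B in sequence, had 4435 in SCR 1, 724 in SCR 2, 1544 in SCR 3 and 1142 to 1778 in SCR 4 to 6. HSPH1, a co-chaperone of HSP70, had 9123, 7687 and 3753 in SCR 1 to 3 against 3619.6, 3109 and 3639. The list level was 0.75 above the mean of the 6 libraries in SCR 1 and 0.31 below it in SCR 3. Immediate early genes had a median difference of -0.59, with 1 of 22 apart: KLF6, a zinc finger factor, had 1445, 2955 and 2754 against 975, 838 and 931. The count depended on single libraries. Without SCR 1, 9 of the 22 were apart and higher in SCR 2 and 3 (median -0.83), and without SCR 6, 7 were apart and higher in SCR 1 to 3 (-0.81). EGR1 had 991, 7772 and 2834 against 492, 499 and 2379, and SCR 2 was highest in 13 of the 22 genes. SCR 6 was above SCR 1 in EGR1, so the sets overlapped.

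Interferon-stimulated genes were higher in SCR 4 to 6 in 3 of 29 members, with a median log2 difference of 0.32. The median was 0.06 after quantile normalization and 0.11 without SCR 2, and the count was 2 in both and 6 without SCR 3. IFITM1, a membrane protein against virus entry, had 127, 11.8 and 6.92 against 198, 296 and 253 (log2 difference 3.39). IFITM3 had 1282, 354 and 449 against 1408, 1949 and 1310 (1.38), and IFI27 stayed below 50 in all 6 libraries (1.28). SCR 1 lay close below SCR 4 to 6 in IFITM1 and IFITM3. ISG15, a ubiquitin-like protein and standard marker of the interferon response, had 66.2, 44.8 and 66.9 against 77.7, 74.1 and 56.8 and overlapped. The remaining stress lists had few genes apart. Aminoacyl-tRNA synthetases (0 of 20) and the unfolded protein response (0 of 24) had none. NRF2 antioxidant targets had 1 of 23 (ABCC3, an exporter, higher in SCR 1 to 3), p53 targets 1 of 22 (FAS, a death receptor, higher in SCR 1 to 3), and amino acid transport and synthesis genes 1 of 23 (ALDH1L2, a mitochondrial folate enzyme, higher in SCR 4 to 6). In the list of NF-kB and cytokine genes, 3 of 17 were apart, LIF in SCR 1 to 3 and TNFAIP2 and CXCL1 in SCR 4 to 6. ABCC3 and LIF were not apart without SCR 3, and CXCL1 and IFI27 were not without SCR 2.

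**Figure D3:**
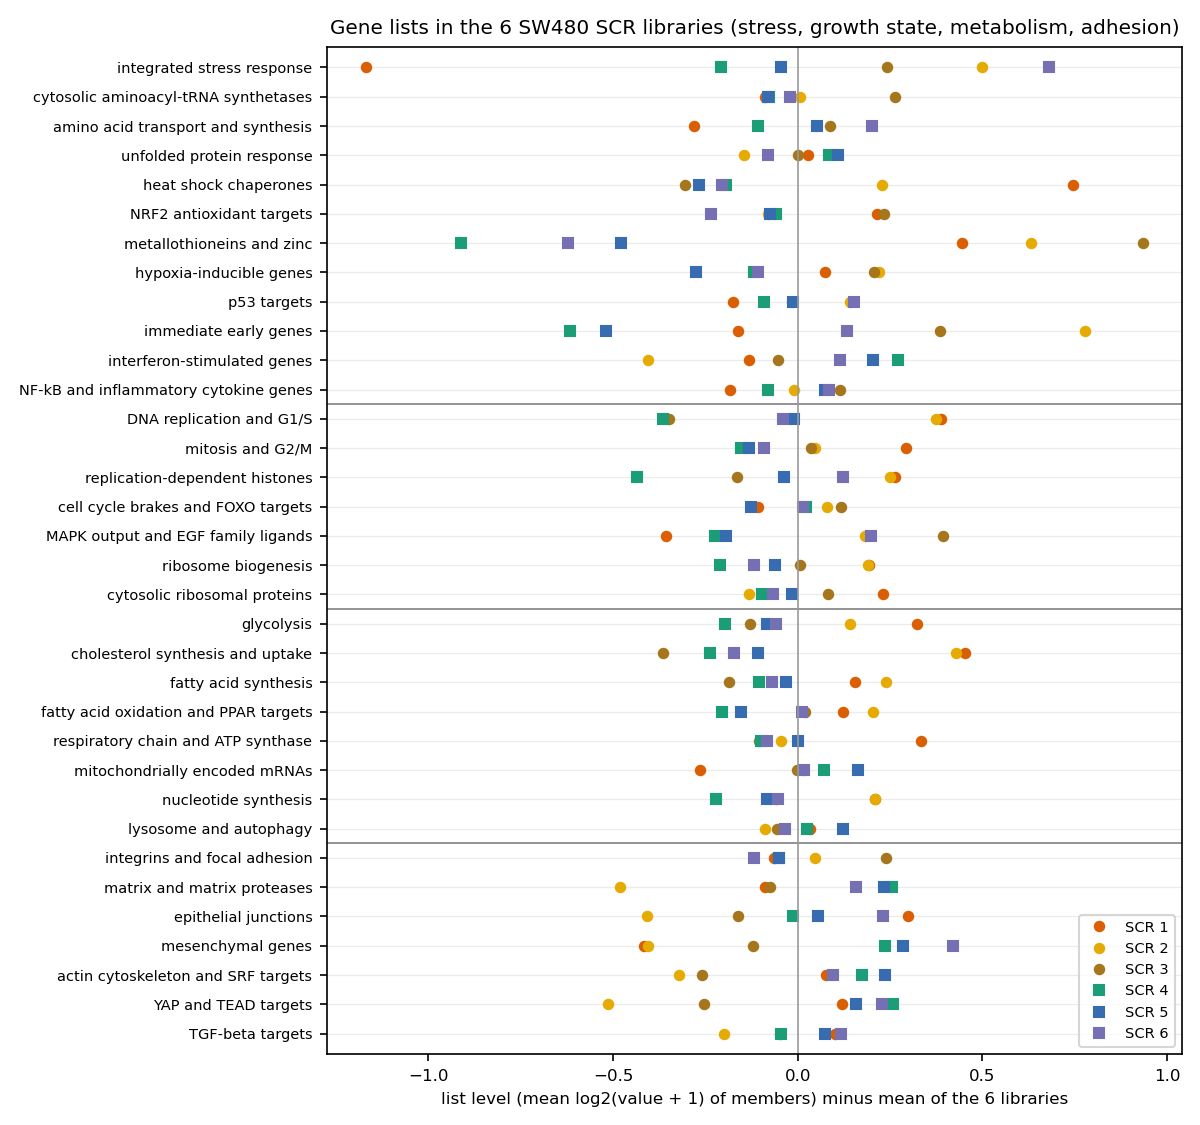
Level of 34 gene lists (mean log2(value + 1) of members) in each SW480 SCR library, minus the mean of the 6 libraries; circles are SCR 1 to 3 and squares SCR 4 to 6. The metallothionein list has its circles right and its squares left of the mean, matrix, mesenchymal and interferon lists the reverse, and the integrated stress response list spreads from -1.17 in SCR 1 to 0.68 in SCR 6.

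Growth state lists had almost no gene apart, and small shifts over many genes. The mean log2 level was at least 9.54 in the replication, mitosis, ribosome biogenesis and ribosomal protein lists in all 6 libraries. Of all genes with a mean of 1000 or more, only 0.899% were apart and higher in SCR 4 to 6 and 1.31% in SCR 1 to 3. The low count is therefore not read as a trait of growth state. Of 250 growth state genes past the limit, 1 was apart and higher in SCR 4 to 6 and 2 were higher in SCR 1 to 3, all 3 in the list of MAPK output and EGF family ligands (DUSP4 against DUSP5 and EGFR). DUSP4, with a log2 difference of 1.02, was not apart without SCR 2, SCR 3 or SCR 5. None of 41 DNA replication genes, 33 mitosis genes, 40 ribosome biogenesis genes and 79 cytosolic ribosomal protein genes was apart. The means were nonetheless higher in SCR 1 to 3 for 34 of the 41 replication genes (median log2 difference -0.33), 29 of the 33 mitosis genes (-0.31) and 38 of the 40 ribosome biogenesis genes (-0.24). Of 8914 genes with a mean of 200 or more, 39.2% had the higher mean in SCR 4 to 6, and their median difference was -0.08. The replication median was -0.62 without SCR 3, the mitosis median -0.18 after quantile normalization and -0.20 without SCR 1, and the ribosome biogenesis median -0.14 after quantile normalization. The replication list was 0.39 and 0.37 above the mean of the 6 libraries in SCR 1 and SCR 2 and 0.35 below it in SCR 3, so SCR 3 lay with SCR 4 (0.37 below). PCNA, the sliding clamp of replication, had 6274, 5468 and 3511 against 2555, 3198 and 3315. MKI67, the proliferation marker Ki-67, had 34893, 34280 and 29713 against 21479, 23454 and 24655, without overlap and below 2-fold. Ribosomal protein genes were highest in SCR 1 in 60 of 79 genes and lowest in SCR 2 in 41 of 79, which again lay within the set of SCR 1 to 3.

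Of 212 genes of metabolism, 4 were apart and higher in SCR 1 to 3 and 1 was higher in SCR 4 to 6. Cholesterol synthesis and uptake had 2 of 25, both higher in SCR 1 to 3, and a median log2 difference of -0.43. INSIG1, the sterol sensor that holds back SREBP, had 1207, 1326 and 453 against 369, 418 and 356 (log2 difference -1.24), and CYP51A1, a demethylase of the pathway, had 5933, 7452 and 4648 against 2524, 2933 and 3304 (-1.02). Without SCR 2, neither was apart and the median was -0.23. Without SCR 4 CYP51A1 was not apart, without SCR 3 there were 5 genes apart and the median was -0.68, and without SCR 1 it was -0.24. The list level was 0.45 and 0.43 above the mean of the 6 libraries in SCR 1 and 2 and 0.36 below it in SCR 3, lower than in SCR 4, 5 and 6. ALDOC, a glycolytic aldolase, had 218, 150 and 116 against 75.3, 64.5 and 91.8 and was not apart without SCR 1 or without SCR 5, and PLIN2, which coats lipid droplets, had 569, 2238 and 1258 against 252, 362 and 314. GABARAPL1, an autophagy protein, had 1625, 612 and 912 against 2514, 2553 and 2388. None of 76 respiratory chain and ATP synthase genes was apart, but 65 of them were highest in SCR 1. Mitochondrially encoded mRNAs took 0.0985% to 0.118% of the summed values in SCR 1 to 3 and 0.126% to 0.144% in SCR 4 to 6.

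In adhesion, 15 of 146 genes were apart and higher in SCR 4 to 6 and 7 higher in SCR 1 to 3. In stress the counts were 8 and 12 of 245, and over all genes the shares were 6.43% and 2.26%. Some adhesion genes apart, such as FBN2, MMP2 and PRRX1, had a mean below 100, where the share higher in SCR 4 to 6 was 15.4%. MMP2 was below 10 in SCR 1 to 3 and passed the limit on low values through SCR 4 to 6 alone. In the list of matrix proteins and matrix proteases, 5 of 29 were higher in SCR 4 to 6 and 2 in SCR 1 to 3 (median log2 difference 0.31). SPARC, a collagen-binding matrix protein, had 385, 73.6 and 75.2 against 1007, 1163 and 1042 (3.04). COL5A1, a fibrillar collagen chain, had 81.0, 3.98 and 14.2 against 505, 403 and 277 (4.39). TNC, tenascin C, went the other way with 1062, 2440 and 4183 against 364, 597 and 623 (-2.11), as did MMP14, a membrane-bound matrix protease, with 353, 985 and 1109 against 293, 316 and 333. The other matrix genes apart were FBN2, THBS1 and PLAU, all higher in SCR 4 to 6.

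Of 19 actin and SRF target genes, 3 were higher in SCR 4 to 6 and 1 in SCR 1 to 3. TPM1, a tropomyosin, had 2493, 808 and 651 against 5284, 5038 and 4130 (log2 difference 2.13). TAGLN had 71.1, 17.2 and 51.2 against 346, 351 and 210 (2.85), and MYL9, a myosin light chain, had 182, 31.5 and 53.2 against 389, 395 and 262 (2.33). ACTA2, the smooth muscle actin, was instead higher in SCR 1 to 3 (161, 475 and 384 against 102, 111 and 125). The YAP and TEAD targets CCN1, CRIM1 and AMOTL1 were higher in SCR 4 to 6, and none of 19 was higher in SCR 1 to 3 (2 without SCR 1). AMOTL1, an angiomotin that binds YAP, had 300, 10.2 and 14.9 against 821, 651 and 918 (4.39). CCN1 had 1637, 430 and 367 against 2398, 1990 and 1992 (1.73). Of genes in the TGF-beta target list, TGFB2 was apart and higher in SCR 4 to 6 and TGFB1 was apart and higher in SCR 1 to 3. Of 34 lists of stress, growth state, metabolism and adhesion, 11 had a mean level without overlap between the sets. Among single genes, 27.8% of all 15059 had no overlap, whatever the size of the difference. Of the 11 lists, metallothioneins, hypoxia, mitosis, ribosome biogenesis and fatty acid oxidation were higher in SCR 1 to 3. Interferon-stimulated genes, mitochondrially encoded mRNAs and 4 adhesion lists were higher in SCR 4 to 6. The 4 adhesion lists differed by 0.63 for mesenchymal genes, 0.43 for matrix, 0.43 for YAP targets and 0.34 for actin and SRF targets on the log2 scale. The medians over genes were smaller for the actin list (0.05, and -0.02 without SCR 5), the mesenchymal list (0.08, and -0.13 without SCR 6) and the YAP list (0.15, with 0.02 without SCR 2, 0.04 without SCR 5 and 0.39 without SCR 1). None of 27 epithelial junction genes was apart. The integrin and focal adhesion list had 2 of 29, ITGA2 and LIMS1, both higher in SCR 1 to 3.

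Families were also taken by symbol, after the values were seen. Of 36 protocadherins past the limit, 13 (36.1%) were higher in SCR 4 to 6 and 1 in SCR 1 to 3, and of 18 Wnt ligands and Frizzled receptors, 6 (33.3%) were higher in SCR 4 to 6, among them WNT5A, and none in SCR 1 to 3. Of 28 voltage-gated sodium and calcium channel genes 7 (25%) were higher in SCR 4 to 6 and 2 in SCR 1 to 3, and of 26 collagens 6 (23.1%) and 1. Many of these genes have low values, where the background in SCR 4 to 6 was 15.4%, and the clustered protocadherins share exons, so that their reads cannot be told apart with certainty. None of 78 mitochondrial ribosomal proteins, 37 proteasome subunits and 40 splicing factors was apart.

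Of the markers of other cell types, some of those of fibroblasts moved with the split, and the part of fibroblast markers in the matrix results was not tested. Their summed value was 239 to 591 in SCR 1 to 3 and 869 to 1275 in SCR 4 to 6, and 3 of the 7 markers were apart: PDGFRB, a growth factor receptor, with 104, 22.3 and 22.4 against 566, 544 and 399, COL1A1 with 296, 75.5 and 91.7 against 532, 551 and 345, and COL3A1 with at most 21.1 in any library, which like TEK passed the limit on low values through SCR 4 to 6 alone. DCN and PDGFRA, which define fibroblasts, stayed at or below 9.78 in all 6 libraries, and LUM, a matrix proteoglycan, ran from 88.0 to 163 with overlap. COL1A2, a collagen chain, also overlapped, at 11.3, 2.10 and 0.556 against 23.3, 5.63 and 4.44. Endothelial markers had summed values of 22.5 to 65.9 in SCR 1 to 3 and 102 to 214 in SCR 4 to 6. Of the 5, TEK was apart (6.79, 0 and 3.49 against 70.33, 53.04 and 64.66), while KDR was at most 1.57 and PECAM1 at most 5.89. VWF, a large part of the sum, overlapped, with 42.0, 17.8 and 57.6 against 130, 65.5 and 34.0. The leukocyte markers TYROBP (0 in all) and CD3E (at most 2.76) were at or near 0, and no leukocyte marker was apart. Of genes with a mean of 100 to 1000, 35.5% of those higher in SCR 4 to 6, 22.4% of those higher in SCR 1 to 3 and 4.01% of those not apart were below 10 in all 4 HT29 SCR libraries.

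SCR 1 lay between the other control libraries in most genes that separate them. To place it without using its own values, genes were taken in which SCR 2 and 3 differed at least 4-fold from SCR 4 to 6 with no overlap and with a mean of at least 100 in the higher set. On a linear scale with 0% at the mean of SCR 2 and 3 and 100% at the mean of SCR 4 to 6, the median position of SCR 1 was 34.5% over 209 genes higher in SCR 4 to 6 and 81.0% over 120 genes higher in SCR 2 and 3. It was strictly between the means in 90.9% and 86.7% of these genes. A linear scale puts a value between the means nearer to the lower mean than a log2 scale would, in both groups of genes. The silenced libraries, which took no part in the choice of genes, fell on different sides. On the 209 genes siPOLR1D2 replicates 1 and 2 had medians of 3.36% and 3.90%, replicate 3 had 57.0%, and the 3 siPOLR1D3 libraries had 84.3% to 105%. On the 120 genes siPOLR1D2 replicates 1 and 2 had 48.3% and 34.8%, and the other 4 silenced libraries had 99.8% to 104%. On the 209 genes, siPOLR1D2 replicates 1 and 2 thus lay near SCR 2 and 3, and the siPOLR1D3 libraries near SCR 4 to 6.

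**Figure D4:**
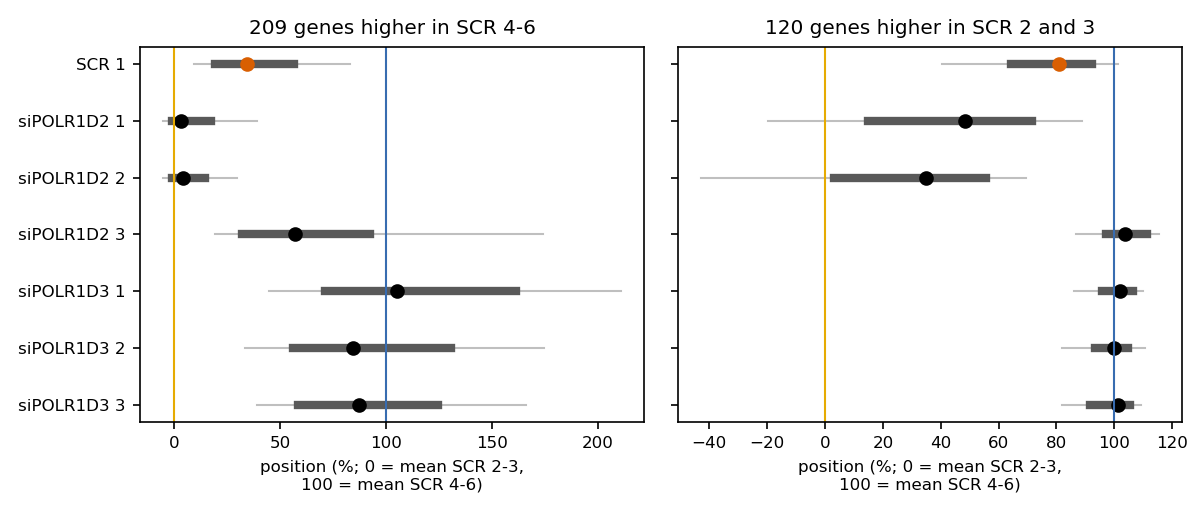
Position of SCR 1 and of the 6 silenced SW480 libraries between the mean of SCR 2 and 3 (0%) and the mean of SCR 4 to 6 (100%), for genes chosen on those 5 control libraries; points are medians over genes, thick lines the quartiles and thin lines the 10th to 90th percentiles. SCR 1 lies at 34.5% and 81.0%, and siPOLR1D2 replicates 1 and 2 lie well left of replicate 3 in both panels.

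The 45 genes that the study listed after silencing were chosen on these libraries, so they are no independent measure. Only 3 of them were apart between the control sets, MUC12, STRC and IL3RA, all higher in SCR 4 to 6. STRC and IL3RA were not apart without SCR 1, and STRC was not without SCR 4. In all 45 the mean of the 6 silenced SW480 libraries lay on the same side of SCR 1 to 3 as of SCR 4 to 6. The range between the highest and lowest control library had a median of 1.49 on the log2 scale. SCR 1 lay within the range of the silenced libraries in 23 of the 45 genes, against 4 to 11 for the other 5 control libraries, while over all 15059 genes the share was 59.7% for SCR 1 and 49.8% to 67.9% for the others. EREG, an EGF family ligand, had 125, 159 and 357 in SCR 1 to 3 and 153, 140 and 398 in SCR 4 to 6, all above the highest silenced library (99.7). PPP1R15A, which restores translation after stress, had 974, 3605 and 3857 against 1688, 1651 and 2579, and GARS, the glycyl-tRNA synthetase, 35788, 54298 and 50184 against 42158, 42547 and 57366. In both genes SCR 1 was the control library nearest to the silenced ones. POLR1D itself, the silenced gene, had 2599, 2081 and 2278 against 1829, 1932 and 1980, all above the silenced libraries (843 to 1336). KIF21B and MOSPD2 had log2 differences of 0.83 and 0.59, LRATD2, listed by the study as FAM84B, 0.53, and in MOSPD2 SCR 1 and SCR 2 (339 and 314) were lowest and within or next to the silenced range (198 to 337). The reference genes ACTB and GAPDH had differences of -0.25 and -0.02. The identity gene CDX2 had a difference of 0.18 but ran from 45.5 to 169 over the 6 libraries, highest in SCR 1.

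By chromosome, genes of the X chromosome stood higher in SCR 4 to 6. Among genes with a mean of 200 or more, the median log2 difference was 0.23 over 289 genes of chromosome X, and 81.7% of them had the higher mean in SCR 4 to 6. The other chromosomes ranged from -0.23 (chromosome 8, 286 genes) to 0.07 (chromosome 11, 503 genes), around -0.08 for all 8914 genes. The shift on X ran along the chromosome, with medians of 0.07 to 0.35 in 8 windows of 20 megabases. Relative to the mean of SCR 4 to 6, the median of the X genes was -0.33 in SCR 2 and -0.36 in SCR 3, below every other chromosome in those libraries. In SCR 1 it was -0.03, also below every other chromosome there, of which the lowest was at 0.03. In the silenced libraries it was -0.26 and -0.41 in siPOLR1D2 replicates 1 and 2, and -0.09 to -0.02 in siPOLR1D2 replicate 3 and the siPOLR1D3 libraries. X-linked genes were thus lowest in the same 4 libraries that were lowest on the 209 genes. The 209 genes were chosen as low in SCR 2 and 3, so the place of these libraries was fixed. Of the 4, only siPOLR1D2 replicates 1 and 2 took no part in that choice. These medians were not tested, and gene copy number was not measured here.

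**Figure D5:**
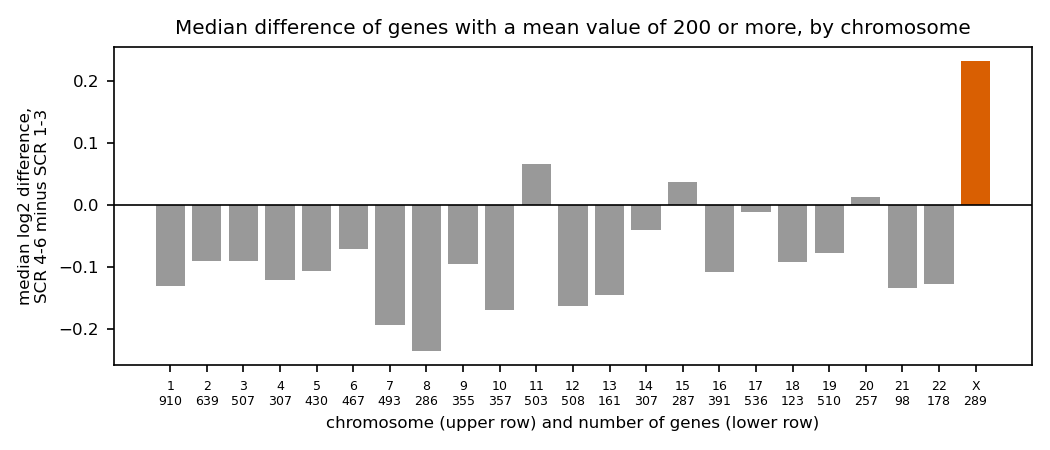
Median log2 difference (SCR 4 to 6 minus SCR 1 to 3) of genes with a mean value of 200 or more, by chromosome, with the number of genes under each bar. The X chromosome, at 0.23, has the highest median, and chromosome 8, at -0.23, the lowest.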

How the data were processed

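RNA of 20 libraries was measured by exon-capture sequencing, and the 6 SW480 SCR libraries are the subject here. The authors deposited 1 file per library with 40117 rows, holding a normalized signal that is not in whole counts. No file header describes the scaling. Median-of-ratios factors computed from the values were equal within a line (1.0119 to 1.0126 in SW480, 1.0039 to 1.0051 in HT29). They were unequal over all 20 libraries (0.879 to 1.13), so levels were mainly compared within a line. Cell type marker values and the share of genes below 10 were also set beside HT29 SCR, without rescaling between the lines. The submitters' processing notes name FastQC 0.11.5, kallisto 0.44.0, DESeq2 1.24.0 and the build hg38; the annotation is not given in the sources used here. Repeated gene names were collapsed by summing, genes reaching 10 in 3 or more of the 6 libraries were kept, and log2(value + 1) was taken. Reads per library were estimated as the sum of values over the most frequent low value, and are approximate, since most low values are no whole multiple of it.

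The members, gene lists and alternatives were chosen with earlier results of these data known. No test was run, since the split came from the values. Named genes were the 10 with the largest difference in each direction among genes apart with a mean of at least 100 in the higher set and a symbol that is no clone name, up to 4 genes apart per list, 8 genes the study names and 5 reference and identity genes. Also named were genes with a mean of at least 1000, families and other list members, chosen after their values were seen. The lists of snoRNA host genes and nuclear long non-coding RNAs matched no name and were not used here. Chromosomes came from GENCODE v29 (GRCh38) by symbol (98.5% of genes had a transcript there), promoters from RefSeq. 1 gene that the rule names is not reported here. The description was tested on simulated data, with 4-fold differences placed only in genes with a mean of at least 100. The simulated libraries had equal depth and none stood apart as SCR 1 did, so smaller differences and those of lower genes were not tested. Alternatives were other pseudocounts, scalings, limits on low values and thresholds, the first row per gene name, and each library left out. Python 3.11.15, pandas 2.3.3 and numpy 2.4.6 were used.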

Additional observations from a re-analysis of the deposited data

Results flagged for a closer look

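In 144 sets of 6 values (each named gene and each gene list over the 6 SW480 SCR libraries), 6 had a single library far from the other 5, and chance alone flags about 1 in 20 such sets. ABCC3 was 3250 in SCR 3, with the next at 1151. CPNE8 was 194 in SCR 2, with the next at 66.4, and PFKFB3 was 1071 in SCR 2, with the next at 535. CDX2, the intestinal homeobox factor, was 169 in SCR 1, with the next at 91.6. The mean log2 level of the aminoacyl-tRNA synthetases was 12.98 in SCR 3, with the next at 12.7, and that of the respiratory chain and ATP synthase genes was 10.98 in SCR 1, with the next at 10.7. The cause was not tested in any of them.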

How the results depend on the processing

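The 341 genes higher in SCR 1 to 3 and the 969 higher in SCR 4 to 6 became 519 and 610 after quantile normalization, 776 and 1455 where a 1.5-fold difference was counted, 100 and 338 where a 4-fold difference was needed, and 2127 and 2059 where any difference without overlap was counted. The 969 became 1736 with no limit on low values and 492 with a limit of 50, which changes the genes looked at, and 387 among genes with a mean of at least 100 in the higher set, a choice made after seeing the data. Leaving out single libraries gave 330 to 607 and 875 to 1280; the 607 and 1280 came without SCR 1. Of the 1310 genes apart, 920 were also apart after quantile normalization and 1149 without SCR 1. No difference of a named gene apart changed sign. Of 87 named genes apart, 79 remained apart after quantile normalization (ANPEP, COL3A1, CXCL1, CYP51A1, IFI27, IL3RA, PRRX1 and STRC did not) and 80 to 83 with each library left out. The median of the mesenchymal list was -0.02 after quantile normalization and -0.13 without SCR 6, and that of the actin list -0.02 without SCR 5. The depth of 18700000 to 27600000 estimated reads limits genes of low value most. No paired analysis was possible because SCR 1 to 3 and SCR 4 to 6 share no replicate number.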
